A study of Mus musculus with 28 samples.

Results

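The Notch pathway was followed here through 9 transcripts in mouse small-intestinal organoids given single ligands of the Tgfb superfamily. They were the receptors Notch1 and Notch2, the ligands Dll1, Dll4 and Jag1, the pathway target genes Hes1 and Nrarp, and Hes6 and Atoh1, genes of the secretory branch of the epithelium. Members were taken by gene name, and 1 row was found for each of them among the 29413 genes of the BMP table and the 55416 genes of the TGFb table. All 9 passed the filter on low values in both tables.

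All organoids were wild-type C57BL/6 epithelial cultures, grown from intestinal crypts in a gel matrix. The BMP table covers 6 groups: untreated controls and BMP2 with 4 samples each, and BMP3, BMP4, BMP5 and BMP7 with 3 samples each. In the TGFb table, 3 untreated controls are set against 3 samples given Tgfb. Every ligand was a recombinant protein given at 500 ng/ml for 24 h, per the labels. Samples carry a Roman numeral in their titles (II, III, IV or VI in the BMP table, and I, II or III in the TGFb table), and the labels do not say whether a numeral stands for an animal, a culture or a day. P-values therefore measure the spread between these samples, which may be technical. The series' text speaks of more than 1 sequencing run and assigns no sample to a run, so a run and a group cannot be told apart.

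Notch signalling passes between touching cells: a ligand of the Delta or Jagged family on one cell binds a Notch receptor on its neighbour, the receptor is cut, and its released inner part joins the DNA-binding protein RBPJ to switch on targets such as Hes1. In the intestinal crypt, cells that receive the signal keep Hes1 on and Atoh1 off and become absorptive cells or remain stem cells. Cells that escape the signal turn on Atoh1, display Dll1 and Dll4, and become secretory cells such as Paneth, goblet and enteroendocrine cells.

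The BMP table holds normalized counts, which are read counts divided by 1 factor per sample, from 21358620 to 24784834 reads per sample. The TGFb table holds TPM, values scaled by transcript length and by the total of the sample, and its depth is unknown. The epithelial label was checked against 6 epithelium markers, all of them present, with a summed level of 115200 to 129800 normalized counts in the control samples. Mesenchymal markers summed to 122.3 to 205.7 and immune markers to 40.44 to 58.68. Endothelial markers summed to 587.3 to 782.3, nearly all of it Pecam1. Of these 4 markers, 2 passed the filter on low values, Pecam1 and Vwf. The other 2, Cdh5 and Kdr, were at 0 in every control sample, while Cdh5 stood at 22.7 to 40.9 in the BMP2 samples. After the authors' scaling the samples of the BMP table did not have the same total: in units of 1000000 normalized counts, BMP2 samples averaged 27.35, BMP4 samples 26.23 and control samples 19.89. Giving every sample the same total moved the median log2 change of all genes tested from -0.03 to -0.49 for BMP2 and from 0.04 to -0.35 for BMP4.

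BMP2 and BMP4 moved most of the 9 transcripts, in patterns that differed, and BMP3 moved none past the threshold. Most of the 14746 genes tested passed it too, 11077 with BMP2 and 9597 with BMP4. Tests were made with limma on log2(value + 1), and a gene was called when its Benjamini-Hochberg adjusted p over all genes tested was under 0.05. With BMP2, Notch2 and Jag1 rose (2 of 9, where 36.8% of the 14746 genes tested rose) and Notch1, Dll1, Hes6, Nrarp and Atoh1 fell (5 of 9, where 38.4% of genes fell). With BMP4 no member rose (33.7% of genes rose) and 7 of 9 fell, all but Jag1 and Atoh1 (31.4% of genes fell). The median log2 change of the 9 was -0.90 with BMP2 and -0.96 with BMP4, beside medians over all genes tested of -0.03 and 0.04. At the same total in every sample, the share of rises among all calls went from 48.9% to 31.5% for BMP2 and from 51.7% to 30.9% for BMP4.

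BMP5 and BMP7 moved fewer members, and also fewer of the 14746 genes tested (3884 and 4773). With BMP5, Notch2 and Jag1 rose (2 of 9, with 16.5% of genes higher) and Dll1 and Nrarp fell (2 of 9, with 9.87% lower). With BMP7, Notch2 and Jag1 rose (2 of 9, with 19.2% higher) and Dll1 fell (1 of 9, with 13.2% lower). For BMP7 the count was 2 higher and 3 lower in the fit with the replicate numeral as a block. In that fit 3541 of the 14746 genes were higher and 3148 lower with BMP7. With BMP5 the block added a call for Atoh1, with 3145 genes higher and 2593 lower. The share of rises among all calls went from 62.5% to 49.8% for BMP5 and from 59.4% to 48% for BMP7 under quantile normalization, and to 48.5% for BMP7 at the same total. With Tgfb, Notch2 and Jag1 rose (2 of 9, with 27.4% of 12959 genes higher) and Dll1, Dll4, Nrarp and Atoh1 fell (4 of 9, with 29.3% lower). Notch2 and Jag1 up with Dll1 down was thus called with BMP2, BMP5, BMP7 and Tgfb. The BMP comparisons share the control samples. The counts were not tested against the shares of all genes.

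**Figure D1:**
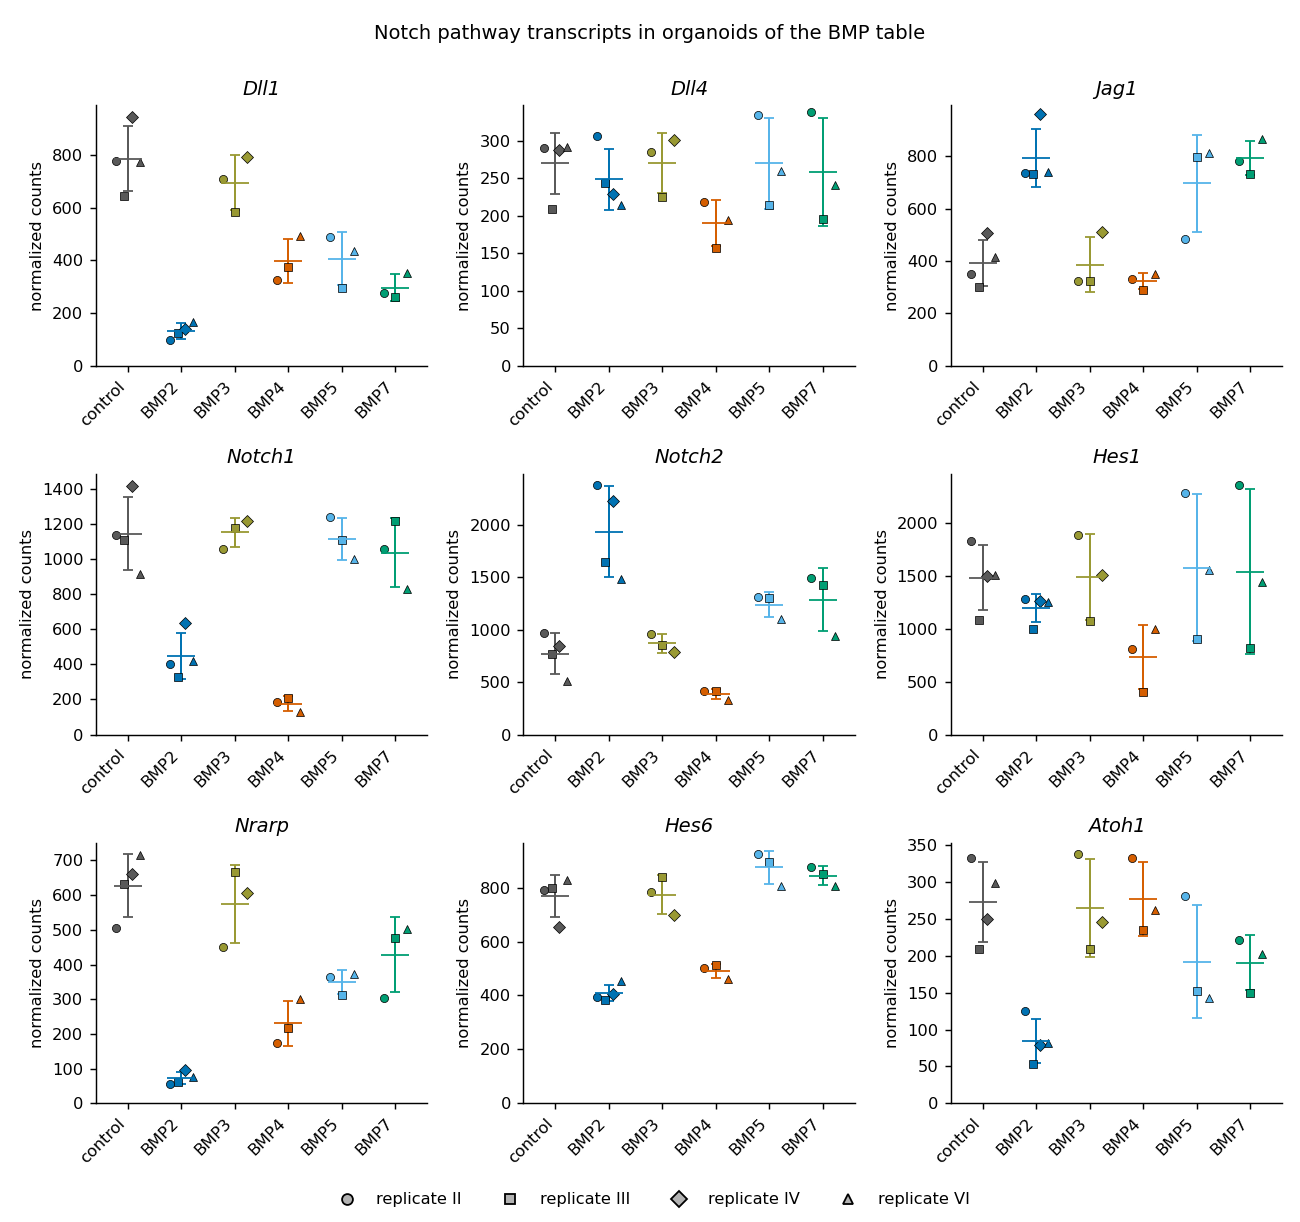
Normalized counts (y axis, from 0) of the 9 transcripts in each sample of the BMP table, by group (x axis); points are samples, marker shapes are replicate numerals, and horizontal marks with bars are the mean ± SD. Dll1 lies between 97.6 and 168 in the 4 BMP2 samples against 646 to 946 in the 4 control samples, and Notch1 lies between 129 and 210 in the 3 BMP4 samples against 913 to 1420 in the controls.

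The 2 receptors moved apart with BMP2 and fell together with BMP4. Notch1, a receptor of crypt progenitors, stood at 1140, 1110, 1420 and 913 normalized counts in control replicates II, III, IV and VI. BMP2 samples held 404, 330, 639 and 419 in the same order, and BMP4 samples 187, 210 and 129 in replicates II, III and VI. Every BMP2 and BMP4 sample lay below every control sample, and every BMP4 sample below every BMP2 sample. The log2 change of Notch1 was -1.38 with BMP2 (SE 0.188, limma adjusted p = 2.24e-06) and -2.71 with BMP4 (SE 0.203, limma adjusted p = 2.57e-09). BMP3 samples (1060 to 1220), BMP5 samples (1000 to 1240) and BMP7 samples (831 to 1220) overlapped the controls. In bulk RNA, fewer cells of a type and less RNA per cell cannot be told apart, which applies to every level given here.

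Notch2, the other receptor of the intestinal epithelium, stood at 971, 766, 842 and 508 normalized counts in control replicates II, III, IV and VI. It stood at 2380, 1650, 2230 and 1480 in the BMP2 samples of the same numerals. In replicates II, III and VI it stood at 411, 418 and 331 with BMP4. BMP2 samples were all above the controls and BMP4 samples all below. On the log2 scale it changed by 1.34 with BMP2 (SE 0.192, limma adjusted p = 4.13e-06) and by -0.96 with BMP4 (SE 0.207, limma adjusted p = 4.70e-04). BMP5 samples held 1310, 1300 and 1100 and BMP7 samples 1490, 1430 and 941 in replicates II, III and VI, so that 1 BMP7 sample lay within the control range. Their log2 changes were 0.71 (SE 0.207, limma adjusted p = 0.0156) and 0.75 (SE 0.207, limma adjusted p = 0.00978). The BMP5 rise missed the threshold without control replicate VI (0.53, limma adjusted p = 0.0554) or without BMP5 replicate III (0.68, limma adjusted p = 0.0638). The BMP7 rise missed it without BMP7 replicate II (0.63, limma adjusted p = 0.0618).

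The ratio of Notch2 to Notch1 within a sample does not depend on how samples were scaled. It was 0.556 to 0.852 in control samples, 3.49 to 5.89 with BMP2, 1.99 to 2.57 with BMP4, 1.06 to 1.17 with BMP5 and 1.13 to 1.41 with BMP7. These groups all lay above the controls, and BMP3 samples (0.646 to 0.908) overlapped them. Transcript lengths are part of each ratio, so it is read between groups and not as one receptor against the other. The ratio was computed from the values already given and has no test of its own.

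Dll1 fell with every ligand except BMP3, Jag1 rose with every ligand except BMP3 and BMP4, and Dll4 moved little. Dll1, the Delta ligand of secretory progenitors, had 779, 646, 946 and 775 normalized counts in control replicates II, III, IV and VI. BMP2 samples had 97.6, 124, 141 and 168. In replicates II, III and VI the values were 327, 374 and 491 with BMP4, 489, 295 and 437 with BMP5, and 275, 262 and 354 with BMP7. All samples given these 4 ligands were below the lowest control, and the BMP2 samples were the lowest of all. The control mean was 5.93 times the BMP2 mean. The log2 change was -2.57 with BMP2 (SE 0.189, limma adjusted p = 4.64e-10), -0.99 with BMP4 (SE 0.204, limma adjusted p = 3.12e-04), -0.97 with BMP5 (SE 0.204, limma adjusted p = 0.00163) and -1.40 with BMP7 (SE 0.204, limma adjusted p = 3.75e-05).

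Jag1, the Jagged ligand, had 350, 302, 508 and 414 normalized counts in control replicates II, III, IV and VI and 738, 733, 961 and 742 in the BMP2 samples. In replicates II, III and VI it had 484, 797 and 813 with BMP5 and 784, 734 and 865 with BMP7. BMP2 and BMP7 samples all lay above the controls, while BMP5 replicate II lay within the control range. Jag1 changed on the log2 scale by 1.03 with BMP2 (SE 0.186, limma adjusted p = 6.06e-05), 0.81 with BMP5 (SE 0.2, limma adjusted p = 0.00554) and 1.03 with BMP7 (SE 0.2, limma adjusted p = 6.15e-04). With BMP4, Jag1 had 333, 290 and 351, within or just below the control range, a log2 change of -0.25 (SE 0.2, limma adjusted p = 0.279). At the same total in every sample that change was -0.65 (limma adjusted p = 0.00924).

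Dll4, the other Delta ligand of the crypt, had 291, 209, 288 and 292 normalized counts in the control samples. BMP4 samples had 218, 157 and 195 in replicates II, III and VI, and 1 of them lay above the lowest control. The log2 change of -0.50 with BMP4 (SE 0.199, limma adjusted p = 0.0333) missed the threshold under quantile normalization (limma adjusted p = 0.321) and without any filter (limma adjusted p = 0.0516). It also missed it when control replicate II, IV or VI, or BMP4 replicate III or VI, was left out (limma adjusted p from 0.0554 to 0.157). With BMP2 the change was -0.12 (limma adjusted p = 0.576), and -0.58 at the same total in every sample (limma adjusted p = 0.00818). With BMP5 and BMP7 Dll4 changed by -0.01 and -0.09 (limma adjusted p = 0.978 and 0.769).

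The promoters of the 2 ligands that moved in opposite directions were read for sequence motifs. Windows of 250 bases before each annotated start were taken from RefSeq (GRCm38.p6), where 8 of the 9 members were matched, all but Hes1. Searched on both strands were TGGGAA (the core of the RBPJ site, in 21.6% of the 32851 windows), GGCGCC (a GC-rich SMAD site, in 9.59%) and CAGCTG (an E-box, the kind of site bound by Atoh1 and other bHLH factors, in 13%). Capitals below mark a match to GGCGCC in the first Dll1 window and to CAGCTG in the second Dll1 window and in Jag1. The windows run 5′ to 3′ on the minus strand at chr17:15375824-15376073, chr17:15376933-15377182 and chr2:137116521-137116770.
Dll1 first window: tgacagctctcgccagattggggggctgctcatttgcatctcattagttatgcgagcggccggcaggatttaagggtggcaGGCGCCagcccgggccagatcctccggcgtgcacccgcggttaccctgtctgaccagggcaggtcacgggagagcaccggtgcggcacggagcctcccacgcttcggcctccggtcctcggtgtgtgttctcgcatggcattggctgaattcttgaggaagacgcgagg
Dll1 second window: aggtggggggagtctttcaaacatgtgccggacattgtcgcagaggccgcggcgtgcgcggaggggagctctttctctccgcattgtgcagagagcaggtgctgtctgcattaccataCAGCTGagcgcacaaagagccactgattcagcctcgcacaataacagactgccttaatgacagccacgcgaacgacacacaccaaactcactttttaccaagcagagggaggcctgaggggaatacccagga
Jag1 window: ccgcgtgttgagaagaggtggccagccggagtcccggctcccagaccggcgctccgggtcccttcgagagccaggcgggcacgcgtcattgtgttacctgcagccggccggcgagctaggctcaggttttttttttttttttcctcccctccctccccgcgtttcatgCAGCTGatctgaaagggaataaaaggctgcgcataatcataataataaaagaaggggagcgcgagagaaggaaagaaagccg
The match in the first Dll1 window begins 169 bases before the start, that in the second 132 bases and that in Jag1 82 bases before it. Both Hes6 windows also held CAGCTG, and none of the 10 windows of the 8 matched members held TGGGAA. A match is a description of letters and not a bound site.

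The ratio of Jag1 to Dll1 within a sample was 0.449 to 0.537 in the controls and 4.42 to 7.56 with BMP2, a mean 12.4 times the control mean. It was 2.44 to 2.85 with BMP7, 0.99 to 2.7 with BMP5 and 0.715 to 1.02 with BMP4. Each of these groups lay above the controls, and BMP3 samples (0.457 to 0.645) overlapped them. The ratio was computed after its parts had been seen to move and has no test of its own.

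**Figure D2:**
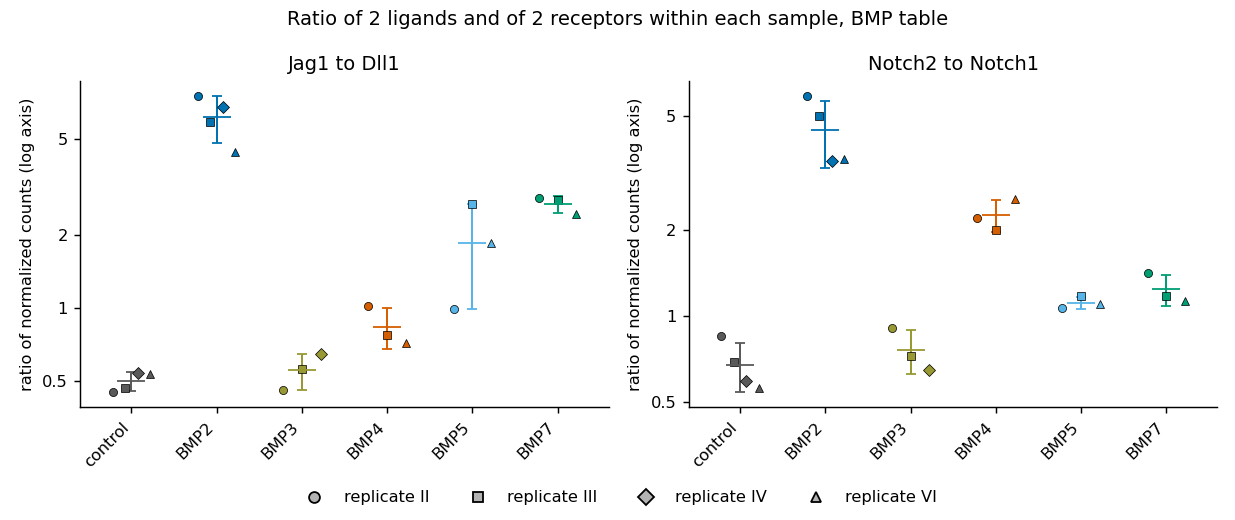
Ratio of Jag1 to Dll1 (left) and of Notch2 to Notch1 (right) in each sample of the BMP table, on a log axis, by group; points are samples, marker shapes are replicate numerals, and marks with bars are the mean ± SD. BMP2 samples are highest in both panels (4.42 to 7.56 and 3.49 to 5.89), and BMP3 samples overlap the controls in both.

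Of the 2 direct targets, Nrarp fell with BMP2, BMP4 and BMP5, and Hes1 fell with BMP4. Nrarp encodes a small protein that dampens Notch signalling and is itself switched on by it. It had 504, 631, 661 and 715 normalized counts in control replicates II, III, IV and VI, and 56.8, 61.4, 95.3 and 77.2 in the BMP2 samples. In replicates II, III and VI it had 174, 217 and 302 with BMP4, 365, 311 and 374 with BMP5, and 305, 477 and 503 with BMP7. Every one of these samples lay below the lowest control. Nrarp changed by -3.11 with BMP2 on the log2 scale (SE 0.202, limma adjusted p = 9.00e-11), a control mean 8.64 times the BMP2 mean. It was -1.46 with BMP4 (SE 0.219, limma adjusted p = 1.05e-05) and -0.83 with BMP5 (SE 0.219, limma adjusted p = 0.00833). With BMP7 it was -0.57 (SE 0.219, limma adjusted p = 0.0529), and -0.51 in the fit with the replicate numeral as a block (limma adjusted p = 0.0108). The BMP7 change passed the threshold in 9 of 17 alternatives, among them those without control replicate II (-0.67, limma adjusted p = 0.0353) or BMP7 replicate VI (-0.71, limma adjusted p = 0.045), over a range of adjusted p from 0.0108 to 0.294.

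Hes1, the repressor that holds Atoh1 down in absorptive progenitors, varied widely within groups. Control replicates II, III, IV and VI held 1830, 1080, 1500 and 1510 normalized counts, and BMP2 samples 1280, 1000, 1260 and 1250. BMP4 samples held 811, 404 and 992 in replicates II, III and VI, all below the lowest control. In the same numerals BMP5 samples held 2280, 901 and 1550 and BMP7 samples 2360, 817 and 1440, on both sides of the control range. The log2 change was -1.08 with BMP4 (SE 0.351, limma adjusted p = 0.0114), and -0.70 without BMP4 replicate III (limma adjusted p = 0.104). With BMP2 it was -0.29 (95% interval -0.97 to 0.39, limma adjusted p = 0.434), and -0.75 at the same total in every sample (limma adjusted p = 0.0387). With BMP5 and BMP7 it was 0.02 and -0.05, with intervals from -0.72 to 0.75 and from -0.79 to 0.69, which include a change of either sign.

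Hes6, a Hes family member known to counter Hes1 and linked to secretory progenitors, had 792, 799, 653 and 827 normalized counts in the control samples. It had 393, 385, 407 and 452 in the BMP2 samples, and 501, 512 and 460 in replicates II, III and VI with BMP4. Both groups lay below all controls. Hes6 changed by -0.90 with BMP2 on the log2 scale (SE 0.0896, limma adjusted p = 3.14e-08) and -0.64 with BMP4 (SE 0.0967, limma adjusted p = 1.22e-05). BMP5 and BMP7 samples held 806 to 926 and 806 to 877, and their changes of 0.19 and 0.14 did not pass (limma adjusted p = 0.157 and 0.276).

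Atoh1, a transcription factor of secretory progenitors, fell with BMP2 and not with BMP4. Control replicates II, III, IV and VI held 333, 210, 250 and 299 normalized counts, and BMP2 samples 125, 53.7, 78.8 and 82.3. BMP4 samples held 333, 235 and 263 in replicates II, III and VI. The BMP2 samples were all below the controls and the BMP4 samples lay within their range. The log2 change was -1.71 with BMP2 (SE 0.253, limma adjusted p = 5.77e-06) and 0.03 with BMP4 (95% interval -0.55 to 0.60, limma adjusted p = 0.939). BMP5 samples held 281, 153 and 143 and BMP7 samples 221, 150 and 202. Their log2 changes of -0.55 and -0.51 missed the threshold (limma adjusted p = 0.151 and 0.163) and passed it with the replicate numeral as a block, at -0.58 and -0.53 (limma adjusted p = 0.00546 and 0.00719). Without BMP5 replicate II the BMP5 change was -0.86 (limma adjusted p = 0.0268).

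Other cell markers moved with these changes. All 5 stem cell markers fell with BMP2 and BMP4, from a summed 99820 to 124500 normalized counts in controls to 1165 to 2048 and 3689 to 6504. Their median log2 change was -7.29 with BMP2 and -4.98 with BMP4. All 4 proliferation markers fell with both, and 0 of 4 with BMP5 or BMP7. Of the stem cell markers 1 of 5 fell with BMP5 and 3 of 5 with BMP7. All 5 Paneth markers fell with BMP2 and 0 of 5 with BMP4, while 5 of 6 goblet markers rose and 0 fell with BMP4, against 3 that rose and 2 that fell with BMP2. All 6 epithelium markers rose with BMP2, BMP4, BMP5 and BMP7, to a summed 666800 to 853400 normalized counts with BMP2 and 249100 to 357200 with BMP4. All 5 enterocyte markers rose with BMP4, and 2 rose and 2 fell with BMP2. Of 3 tuft markers tested, 3 rose with BMP2 and with BMP7, and 2 with BMP4 and with BMP5. Of 6 enteroendocrine markers, 2 rose and 2 fell with BMP2. With BMP4 and with BMP7, 0 of these 6 rose and 2 fell, and with BMP5 0 rose and 0 fell. The part of all these markers in the changes of the 9 members was not tested.

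**Figure D3:**
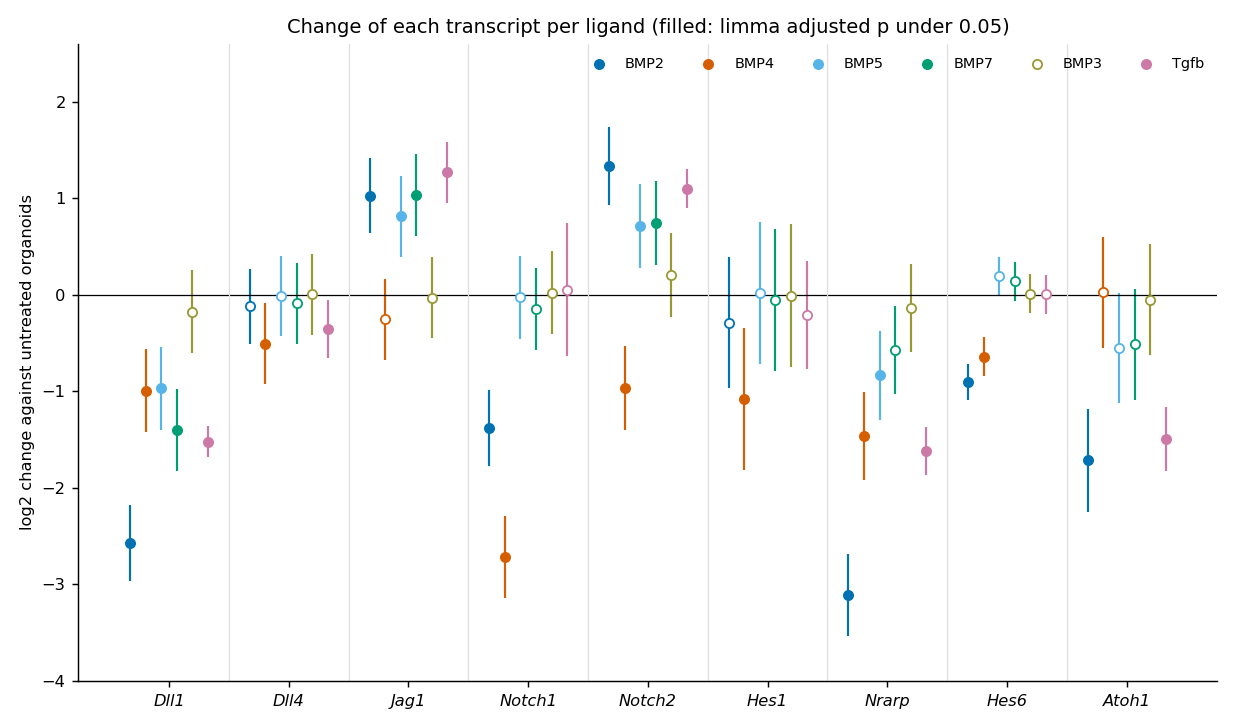
Log2 change against untreated organoids (y axis) of each transcript (x axis) per ligand, with 95% intervals from limma; filled points have an adjusted p under 0.05 and open points do not. The largest falls are Nrarp with BMP2 (-3.11) and Notch1 with BMP4 (-2.71), and the BMP3 points lie between -0.17 and 0.20.

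BMP3, a divergent member of the family, left all 9 transcripts without a call. Log2 changes ran from -0.17 for Dll1 to 0.20 for Notch2, every adjusted p from limma was 1, and all 9 groups of BMP3 samples overlapped the controls. In this comparison 0% of genes were called higher and 0% lower, with 110 of 14746 at an unadjusted p under 0.05. edgeR called 0 genes and DESeq2 1. The 95% intervals were widest for Hes1 (-0.74 to 0.73) and narrowest for Hes6 (-0.19 to 0.22), so that for Hes1 a moderate change in either direction lies inside the interval.

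The 5 BMP ligands differed from each other in 7 of 9 members by limma's moderated F-test, where 84.1% of genes differed. The exceptions were Dll4 (limma adjusted p = 0.168) and Hes1 (limma adjusted p = 0.0522). Both passed at the same total in every sample (limma adjusted p = 0.00174 and 0.0032). Both also passed with the replicate numeral as a block (limma adjusted p = 0.0118 and 1.17e-04), where 13164 of 14746 genes differed. Hes1 passed too with edgeR, DESeq2 and quantile normalization (adjusted p from 0.0271 to 0.0353). Hes1 passed as well without any 1 of BMP3 replicate III, BMP4 replicate VI, BMP5 replicate III, BMP7 replicate II and BMP7 replicate III (limma adjusted p from 0.0129 to 0.0387). BMP2 against BMP4 left 3 members higher with BMP2 (33.4% of genes) and 4 lower (33.4%). Notch2 differed most, by 2.30 on the log2 scale (SE 0.207, limma adjusted p = 1.41e-08), followed by Atoh1 at -1.74 (SE 0.273, limma adjusted p = 1.66e-05). Notch1 was 1.33 and Jag1 1.28 higher with BMP2, while Nrarp, Dll1 and Hes6 differed by -1.65, -1.58 and -0.26. Hes6 (limma adjusted p = 0.0225) missed the threshold under quantile normalization (-0.17, limma adjusted p = 0.149), in a fit of these groups alone (limma adjusted p = 0.0871), and without BMP2 replicate III or BMP4 replicate II or III (limma adjusted p from 0.0569 to 0.0785). Hes1 was 0.79 higher with BMP2 (limma adjusted p = 0.054), and 1.06 higher without BMP4 replicate VI (limma adjusted p = 0.0237). With the replicate numeral as a block Hes1 was 0.78 higher (limma adjusted p = 8.09e-04) and Dll4 0.37 higher (limma adjusted p = 0.014).

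BMP2 against BMP7 left 1 member higher with BMP2 (31.4% of genes) and 5 lower (31.4%). Nrarp was lower by -2.54 (SE 0.219, limma adjusted p = 1.65e-08), and Notch1, Atoh1, Dll1 and Hes6 by -1.23, -1.20, -1.17 and -1.04. Notch2 was higher by 0.59 (SE 0.207, limma adjusted p = 0.0191), and by 0.20 at the same total in every sample (limma adjusted p = 0.453). It also missed the threshold under quantile normalization and without BMP2 replicate II or IV or BMP7 replicate VI (limma adjusted p from 0.0555 to 0.142). Jag1 differed by -0.01, with a 95% interval of -0.43 to 0.41. At the same total in every sample the share of genes higher among all calls went from 50.1% to 26.5%.

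BMP4 against BMP7 left 0 members higher with BMP4 (28.4% of genes) and 6 lower (31.4%), led by Notch1 at -2.57 (SE 0.217, limma adjusted p = 1.63e-08), Notch2 at -1.71 (SE 0.221, limma adjusted p = 2.57e-06) and Jag1 at -1.29 (SE 0.214, limma adjusted p = 4.44e-05). Hes1 at -1.03 (limma adjusted p = 0.024) missed the threshold without BMP4 replicate III, BMP7 replicate II or BMP7 replicate VI (limma adjusted p from 0.0536 to 0.161) and in a fit of these groups alone (limma adjusted p = 0.0653). With the replicate numeral as a block, 3 more members were called: Dll1 at 0.41 (limma adjusted p = 0.0316), Dll4 at -0.42 (limma adjusted p = 0.00918) and Atoh1 at 0.54 (limma adjusted p = 0.0051). Calls over all 14746 genes rose too with the block, from 8818 to 9976 (4822 higher and 5154 lower with BMP4). Dll4 was also called at -0.60 without BMP7 replicate III (limma adjusted p = 0.0313). The share of genes higher among all calls went from 47.5% to 28.6% at the same total.

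BMP5 against BMP7 left 0 of 9 members called in either direction, where 0.00678% of genes were called higher and 0.00678% lower. The largest difference among the 9 was Dll1, 0.43 higher with BMP5 (95% interval -0.02 to 0.89, limma adjusted p = 1). At an unadjusted p under 0.05 stood 347 of 14746 genes, and edgeR and DESeq2 called 4 and 24. Differences in the 9 members up to the ends of their intervals, -0.72 to 0.85 for Hes1 as the widest, are not excluded by these 6 samples.

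**Figure D4:**
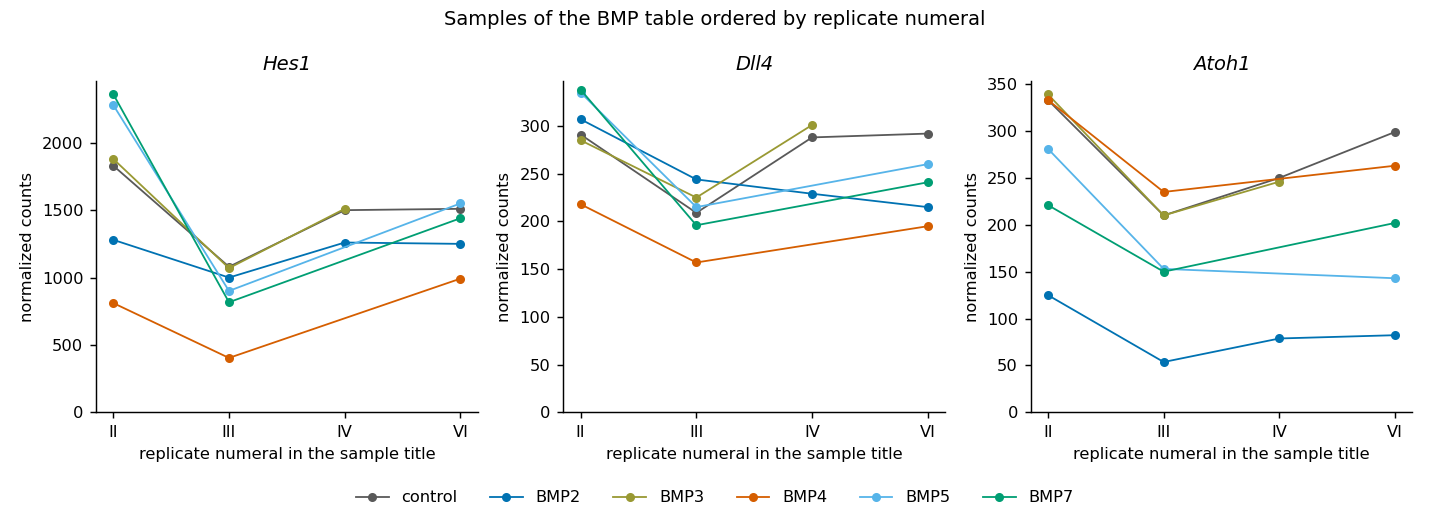
Normalized counts (y axis, from 0) of Hes1, Dll4 and Atoh1 by the replicate numeral of the sample title (x axis), with 1 line per group joining its samples. Samples numbered III are lowest for Hes1 in 6 of 6 groups and for Dll4 and Atoh1 in 5 of 6.

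Samples with the same numeral deviated from their group means together in most comparisons of the BMP table, and 3 members carried this most plainly. The samples numbered III were the lowest of their group for Hes1 in 6 of 6 groups, for Dll4 in 5 (all but BMP2) and for Atoh1 in 5 (all but BMP5). The samples numbered II were the highest of their group for Atoh1 in 6 of 6 groups, and for Hes1 and Notch2 in 5 of 6 (all but BMP4). Jag1 and Nrarp were highest in the samples numbered II in 0 of 6 groups.

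With Tgfb, Jag1 and Notch2 rose, Dll1, Nrarp, Atoh1 and Dll4 fell, and Notch1, Hes1 and Hes6 were not called. The tables were scaled separately, so each value belongs to its own table and no test was made across them. Dll1 had 20.69, 20.48 and 19.33 TPM in control replicates I, II and III and 6.527, 6.432 and 6.156 with Tgfb. Jag1 had 3.03, 3.366 and 4.193 TPM in the controls and 9.166, 9.314 and 11.2 with Tgfb. Neither ligand's groups overlapped. The log2 change was -1.52 for Dll1 (SE 0.0657, limma adjusted p = 1.32e-05) and 1.27 for Jag1 (SE 0.131, limma adjusted p = 3.42e-04). The ratio of Jag1 to Dll1 went from 0.146 to 0.217 in the controls to 1.4 to 1.82 with Tgfb.

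Notch2 had 3.967, 4.452 and 3.829 TPM in control replicates I, II and III and 9.501, 9.932 and 10.28 with Tgfb. Nrarp had 13.61, 14.93 and 16.67 TPM in the controls and 3.85, 4.599 and 4.274 with Tgfb. Atoh1 had 5.86, 6.599 and 7.933 TPM in the controls and 1.509, 1.892 and 1.874 with Tgfb. In all 3 genes the groups lay apart, Notch2 higher and the other 2 lower with Tgfb. The log2 changes were 1.1 for Notch2 (SE 0.0847, limma adjusted p = 9.85e-05), -1.62 for Nrarp (SE 0.102, limma adjusted p = 4.68e-05) and -1.49 for Atoh1 (SE 0.137, limma adjusted p = 2.05e-04). Adding 1 before the logarithm shrinks changes at such low TPM. The control mean was 3.55 times the Tgfb mean for Nrarp and 3.87 times for Atoh1, and the Tgfb mean of Notch2 was 2.43 times its control mean.

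Notch1 had 8.908, 8.563 and 8.24 TPM in the controls and 6.998, 15.08 and 6.636 with Tgfb. Tgfb replicate II lay above all controls and the other Tgfb samples below them. The log2 change was 0.06 (SE 0.286, limma adjusted p = 0.885), and -0.29 without Tgfb replicate II (limma adjusted p = 0.0371). Hes1 had 60.23, 63.94 and 71.87 TPM in the controls and 45.99, 46.9 and 82.58 with Tgfb, with Tgfb replicate III above all controls and the others below. Its log2 change was -0.21 (SE 0.232, limma adjusted p = 0.476), and -0.48 without Tgfb replicate III (limma adjusted p = 0.0103). Dll4 fell by 0.35 on the log2 scale (limma adjusted p = 0.0478), from 3.355 to 3.83 TPM in the controls to 2.289 to 3.008 with Tgfb. Its call was lost without any filter (limma adjusted p = 0.128) and without any 1 of control replicates I, II and III or Tgfb replicates I and II (limma adjusted p from 0.0689 to 0.128). Hes6 had 34.57 to 39.72 TPM in the controls and 35.14 to 39.86 with Tgfb, a log2 change of 0.01 (95% interval -0.20 to 0.21, limma adjusted p = 0.956). All 5 stem cell markers and all 4 proliferation markers fell with Tgfb, the former from a summed 2504 to 2956 TPM to 165.2 to 172. The median log2 change of these stem cell markers was -1.7. Mean TPM went from 50.64 to 14.98 for Lgr5, from 71.12 to 27.77 for Axin2 and from 12.86 to 8.715 for Ascl2. Most of the stem cell sum in the controls therefore belonged to the other markers of that list. All 6 epithelium markers rose, from a summed 3222 to 3487 TPM to 12620 to 16940, and 5 of 6 goblet markers fell, from a summed 1062 to 1322 TPM to 713.3 to 762.6. Of 4 tuft markers 3 rose, and of 6 enteroendocrine markers 3 rose and 0 fell. The part of these markers in the changes of the members was not tested.

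**Figure D5:**
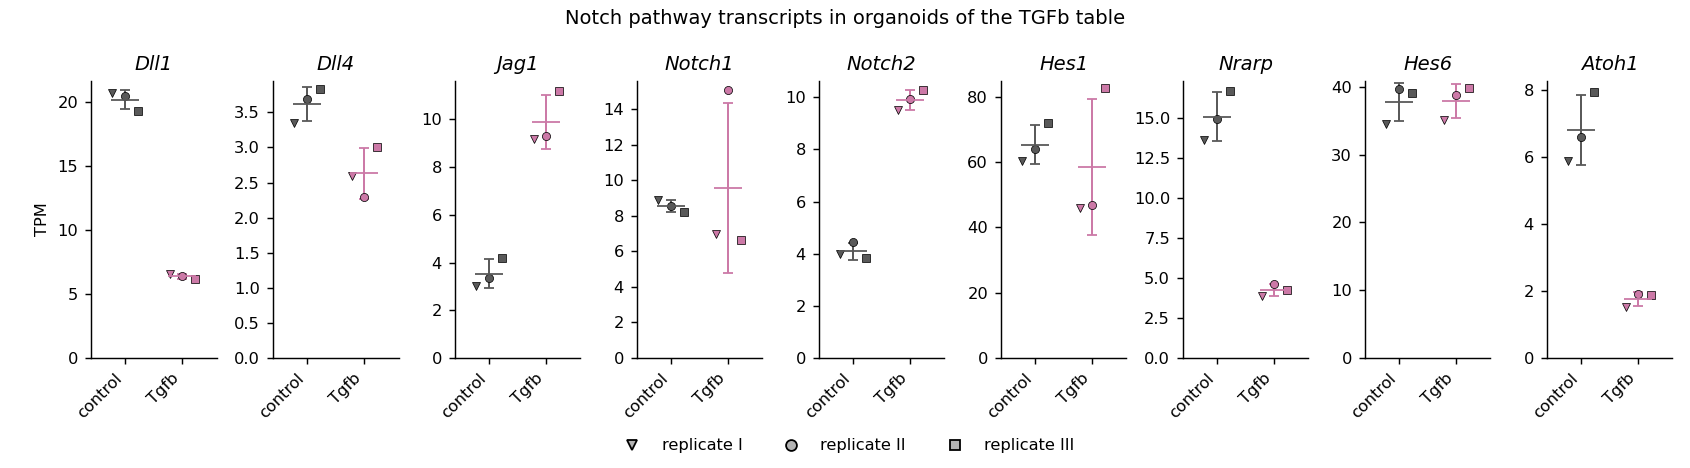
TPM (y axes, from 0) of the 9 transcripts in the 3 control and 3 Tgfb samples of the TGFb table; points are samples, marker shapes are replicate numerals, and marks with bars are the mean ± SD. Dll1, Nrarp and Atoh1 are lower and Jag1 and Notch2 higher in every Tgfb sample, and 1 Tgfb sample stands apart from the others in Notch1 (15.08) and in Hes1 (82.58).

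TPM is scaled by transcript length and lets genes be ordered within a sample. In the controls Hes1 was the most abundant member, at 65.4 TPM (SD 5.95, n = 3), followed by Hes6 at 37.8, Dll1 at 20.2, Nrarp at 15.1, Notch1 at 8.57 and Atoh1 at 6.80. Neighbours in this order had separate ranges. Notch2, Dll4 and Jag1 came last, at 4.08, 3.62 and 3.53 TPM, with overlapping ranges. With Tgfb the order became Hes1 (58.5 TPM), Hes6 (37.9), then Notch2 (9.90), Jag1 (9.89) and Notch1 (9.57) with overlapping ranges, then Dll1 (6.37), Nrarp (4.24), Dll4 (2.63) and Atoh1 (1.76). Dll1 thus moved from above both receptors to below both, and Jag1 from last place to the level of the receptors.

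Over the 20 samples of the BMP table, Pearson's r of log2(value + 1) was used to describe which genes, of 11855 with a mean of at least 50, had the most similar pattern. The samples fall into 6 groups and share numerals, so r describes these groups and has no p. Dll4 and Hes1 were each other's most similar gene (r = 0.899), followed by Zbtb39 for Dll4 (0.854) and Zfp740 for Hes1 (0.89). Among the leading genes for Notch1 were D630045J12Rik (0.977) and Pde3b (0.969), and for Notch2 Rai1 (0.96). For Dll1 they were 4933431E20Rik and Ppt2 (both 0.973), for Jag1 Nfatc2 (0.957) and Mras (0.955), and for Hes6 Zfp395 and Golm2 (both 0.968). For Nrarp they were Fancb (0.987) and Skp2 (0.986), and for Atoh1 C2cd5 (0.943) and Defa29 (0.948), an alpha-defensin whose reads may be shared with near-identical copies and is uncertain. Among the 9 members, Dll1 and Nrarp (0.902) and Hes6 and Nrarp (0.836) had the highest r beside Dll4 and Hes1, followed by Dll1 and Atoh1 (0.807), Notch1 and Hes6 (0.777) and Notch2 and Jag1 (0.753). Jag1 and Atoh1 had the lowest (-0.698).

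A list of 49 further Notch pathway genes (receptors and ligands, receptor processing and glycosylation, endocytosis and turnover, nuclear cofactors, other Hes and Hey genes) had 40 tested in the BMP table. With BMP2 20 rose and 10 fell, with BMP4 15 rose and 15 fell, with BMP5 11 and 4, with BMP7 16 and 5, and with BMP3 0 and 0. Of all genes tested, 36.8% rose and 38.4% fell with BMP2, 33.7% and 31.4% with BMP4, 16.5% and 9.87% with BMP5, 19.2% and 13.2% with BMP7, and 0% with BMP3. As shares of the 40, these counts come to 50.0% and 25.0% with BMP2, 37.5% and 37.5% with BMP4, 27.5% and 10.0% with BMP5, and 40.0% and 12.5% with BMP7. The median log2 change of the 40 was 0.40 with BMP2 and 0.15 with BMP4, beside -0.03 and 0.04 over all genes tested. The list was not tested as a set. Maml2, a coactivator of the Notch complex, rose with BMP2 (3.56, limma adjusted p = 1.89e-11), BMP5 (2.17, limma adjusted p = 1.37e-06) and BMP7 (2.0, limma adjusted p = 2.10e-06). Furin, the protease that cuts the Notch precursor, rose with the same ligands by 2.38, 1.14 and 1.35 (limma adjusted p = 4.58e-11, 3.52e-05 and 4.21e-06). Psen2, a catalytic subunit of gamma-secretase, and Neurl1b, a ubiquitin ligase acting on ligands, changed by -2.01 and -1.5 with BMP2 (limma adjusted p = 2.86e-10 and 5.85e-07).

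Among pathway genes with a mean of at least 50 normalized counts, those with the highest and lowest called changes with BMP4 were others. Dtx4, a ubiquitin ligase of the Deltex family, changed by -4.17 (limma adjusted p = 1.76e-13) and Lfng, a glycosyltransferase that tunes which ligand a receptor answers, by -3.01 (limma adjusted p = 3.01e-12). Dtx3l and Numb, an inhibitor of Notch, rose by 1.60 and 1.39 (limma adjusted p = 9.57e-08 and 1.05e-08). Between BMP2 and BMP4, Dtx4 differed by 3.71 and Lfng by 3.26, both higher with BMP2 (limma adjusted p = 1.43e-13 and 3.74e-13). With Tgfb, 14 of 32 pathway genes tested rose and 5 fell (43.8% and 15.6%, beside 27.4% and 29.3% of all genes tested), among them Furin (2.12, limma adjusted p = 3.81e-05), Dtx3l (0.998, limma adjusted p = 0.00143), Psen2 (-0.90, limma adjusted p = 0.0281) and Rfng, a glycosyltransferase related to Lfng (-0.56, limma adjusted p = 0.0021).

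Of 23 regulators of secretory lineages, 22 were tested in the BMP table. With BMP2 4 rose and 13 fell, with BMP4 3 rose and 16 fell, with BMP5 2 and 3, with BMP7 3 and 7, and with BMP3 0 and 0. For BMP2, BMP4, BMP5 and BMP7 in turn, the regulators that fell came to 59.1%, 72.7%, 13.6% and 31.8%, where 38.4%, 31.4%, 9.87% and 13.2% of all genes tested fell. Those that rose came to 18.2%, 13.6%, 9.09% and 13.6%, where 36.8%, 33.7%, 16.5% and 19.2% of all genes tested rose. Neurog3, which starts the enteroendocrine programme, stood at 110 to 193 normalized counts in controls, at 1.14 to 1.28 with BMP2 and at 0 to 2.28 with BMP4, which is at most 3 reads a sample. It stood at 53.7 to 95.1 with BMP5 and at 18.3 to 23.7 with BMP7. The 6 enteroendocrine markers did not all follow Neurog3: 2 rose and 2 fell with BMP2, and 0 rose and 2 fell with BMP4. Bhlha15, a factor of secretory granule maturation, changed by -4.52 with BMP2 (limma adjusted p = 1.03e-08). Foxa1 and Klf4 rose with BMP2 by 2.87 and 2.74 (limma adjusted p = 1.44e-11 and 2.85e-12), and Klf4 rose with BMP4 by 3.94 (limma adjusted p = 6.49e-13). Sox4, a factor upstream of tuft and enteroendocrine cells, rose with BMP2 by 2.66 (limma adjusted p = 1.77e-09), from 4710 to 8130 normalized counts in controls to 32600 to 41100. Sox4 changed by -2.91 with BMP4 (limma adjusted p = 5.33e-09), to 559 to 1060, and by 1.31 with BMP5 and 1.21 with BMP7 (limma adjusted p = 3.77e-04 and 5.58e-04). With Tgfb 3 of 17 tested rose and 6 fell (17.6% and 35.3%, beside 27.4% and 29.3% of all genes tested), with Foxa1 at 2.04, Sox4 at 1.60, Creb3l1 at -1.37 and Foxa2 at -1.0 (limma adjusted p from 1.51e-05 to 3.18e-04).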

How the data were processed

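Messenger RNA was sequenced from 20 organoid samples of the BMP table and 6 of the TGFb table, of 28 samples in the series. The mesenchymal samples were not used here. The authors deposited, in the BMP table, normalized counts: a signal in which the counts of each sample share 1 divisor, given to 3 significant digits, as read from the values. Of 180721 low values (up to 20 reads), 100% were whole reads within 0.1 read, with 1 read worth 0.826 to 1.28, so depth could be recovered. Recovered reads went to edgeR and DESeq2 as alternatives, which called 11106 and 11172 genes for BMP2 against control where limma called 11077. Larger values are known to 3 digits only. The deposited TGFb table holds TPM, since each column sums to 1000000, and its depth is unknown. Trim Galore, Salmon, DESeq2 and GRCm39 are named in the submitters' processing notes, without roles. In the design limma had been set for values that are not raw counts.

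Tests were two-sided, with limma 3.58.1 (R 4.3.3, edgeR 4.0.16, DESeq2 1.42.0) and an intensity trend on log2(value + 1), which understates changes of low genes, in genes with a mean of at least 10 normalized counts (14746 genes, 1 fit over all 6 groups) or 1 TPM (12959 genes). Benjamini-Hochberg adjustment ran over all genes tested. The fit was also run on simulated data in which few genes changed, unlike these data, and no result here rests on that run. Samples with the same numeral were checked by correlating their deviations from group means: r was 0.0182 to 0.553 over 16 pairs, 15 of which were best with their own number, and every pair passed 0.1 for BMP3, BMP4, BMP5 and BMP7 against control and for BMP4 and BMP5 against BMP7. The blocked value is given there, and in the other comparisons, where it changes a call. Members and lists were chosen with earlier results of these data known. Beside the 9 members, each list names the 2 genes with the highest and the 2 with the lowest change among those called with a mean of at least 50 normalized counts or 5 TPM, and likeness names 2 genes per member. Not every gene so picked is printed, and 1 of them is not reported here. 0 columns were left unmapped. Alternatives were other scalings, pseudocounts of 0.1 and 10, other filters, the block, the other tools and leaving out each replicate.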

Additional observations from a re-analysis of the deposited data

Results flagged for a closer look

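In groups of 4 samples, a sample was marked when its gap to the nearest other sample took more of the group's range than Dixon's critical value allows, which chance gives in about 1 of 20 groups. Of 18 sets of 4 (9 genes in the control and BMP2 groups), 3 were marked. Dll4 in control replicate III, at 209 normalized counts, stood below the other controls (288 to 292). Hes1 in BMP2 replicate III, at 1000, stood below the other BMP2 samples (1250 to 1280). Jag1 in BMP2 replicate IV, at 961, stood above the other BMP2 samples (733 to 742). The samples numbered III were also the lowest of most other groups for Hes1 and Dll4.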

How the results depend on the processing

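Of 99 results for members, 76 neither gained nor lost a call under the alternatives run. Of 90 changes that have a direction, the 46 called kept their sign under these alternatives, and 26 of the 44 not called turned it under at least 1, so no direction is read from those. Of 1704 alternative values, 42 gained a call, 32 lost one and 1 was called with the opposite sign: Notch1 with Tgfb, whose change ran from -0.29 to 0.25 as single replicates were left out. The number of members called stayed within 1.5 times the main number in 188 of 190 alternatives. It rose to 5 for BMP7 with the replicate block, where calls over all genes rose from 4773 to 6689. It dropped to 1 for Tgfb with a mean of at least 10 TPM, where only 3 members remained in the test. With a single replicate left out the number was 7 for BMP2, 5 to 7 for BMP4, 3 to 5 for BMP5, 2 to 4 for BMP7 and 5 to 7 for Tgfb. Calls over all genes moved in the same fits. They were 10700 to 10930 for BMP2 (11077 with all samples) and 8973 to 9294 for BMP4 (9597). For BMP5 they were 2517 to 4301 (3884), for BMP7 3518 to 4674 (4773) and for Tgfb 6337 to 6759 (7348). In comparisons with BMP2 or Tgfb, not every pair of samples with the same number passed an r of 0.1. For BMP2 against BMP4, r was 0.272 for number II, -0.04 for III and 0.298 for VI. The replicate block gave Dll4 and Hes1 a call for BMP2 against BMP4 (limma adjusted p = 0.014 and 8.09e-04). It also gave them one among the 5 BMP ligands (limma adjusted p = 0.0118 and 1.17e-04), and took the call of Dll4 with Tgfb (limma adjusted p = 0.0653). For BMP2 against control the block gave no member a call and took none. Over all genes, calls for BMP5 dropped from 3884 to 2517 without BMP5 replicate III and to 2531 without replicate VI. Those for BMP3 went from 0 to 6 in a fit of its own groups, and those for BMP5 against BMP7 from 2 to between 0 and 24. Depth limits little here, since the lowest member in the BMP table held over 50 normalized counts in every sample.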

Other observations

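Among single pathway genes outside the members, Hey1 set BMP2 apart from the other BMP ligands and Hes2 set BMP4 apart. The genes named here were chosen after their values were seen. Hey1, a Notch target gene that other signals can also switch on, stood at 0 to 1.78 normalized counts in controls, at most 3 reads, and at 78.5 to 118 with BMP2, 11.4 to 27.5 with BMP4, 8.97 to 11.1 with BMP5 and 13.7 to 29 with BMP7, while BMP3 samples held 0 to 1.78. Hes2 stood at 15.1 to 32.2 in controls and at 111 to 133 with BMP4, but at 5.88 to 7.95 with BMP2, 2.74 to 7.18 with BMP5 and 10.9 to 14.4 with BMP7, and none of these 4 groups overlapped the controls. BMP3 samples, at 12.5 to 21, did overlap them. The Hes2 change with BMP7 did not pass the test (log2 -0.62, limma adjusted p = 0.134). Jag2, the other Jagged ligand, rose with BMP7, from 163 to 292 normalized counts in controls to 387 to 647 (log2 change 1.21, limma adjusted p = 0.00155), and its change with BMP2 was 0.08 (limma adjusted p = 0.788). Jag2 also rose with Tgfb, from 2.477 to 3.063 TPM to 4.97 to 8.926 (log2 change 1.01, limma adjusted p = 0.00523).

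The ratio of Hes1 to Nrarp, 2 targets of the same pathway, was 1.71 to 3.63 in controls of the BMP table and 13.2 to 22.5 with BMP2, with no overlap. BMP4 samples, at 1.86 to 4.66, overlapped the controls, as did BMP3, BMP5 and BMP7 samples. In the TGFb table the ratio was 4.28 to 4.43 in controls and 10.2 to 19.3 with Tgfb. The ratio does not depend on how samples were scaled. It was computed from the values already given and has no test of its own.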
